A study of Homo sapiens with 6 samples.

Results

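The genes described here encode the proteins of the mitochondrial ribosome, taken as every symbol of the deposited table that begins with MRPL or MRPS followed by a number and at most 1 letter from A to C. The rule found 78 of 61155 symbols, and 74 of them were tested among 16633 genes. It uses names alone and no measured value, but the set was chosen with earlier results of these data known. The cells were MDA-MB-231, a human breast cancer cell line of mesenchymal, triple-negative type, and their RNA was measured in 3 libraries with VASP knocked down and in 3 control libraries, each taken 48 hours after transfection. The titles call the groups shVASP and plko, an empty hairpin vector, while the characteristics name a VASP siRNA and a negative control siRNA, so the reagent is uncertain although the grouping is the same. VASP itself speeds the growth of actin filaments where the cell edge moves forward.

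Mitochondria translate the few proteins encoded by their own genome on a ribosome that descends from a bacterial one. Its ribosomal RNAs, MT-RNR1 and MT-RNR2, come from mitochondrial DNA, whereas all its proteins are encoded in the nucleus, made in the cytosol and imported. The large subunit joins amino acids and releases the new protein through a tunnel at the inner membrane, and the small subunit reads the message. About the ancestral core sit proteins found in mitochondria and in no bacterial ribosome, and the products of the whole assembly are core subunits of the respiratory chain and ATP synthase.

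The libraries held 28856610 to 30055503 counts, so that 3 counts, the limit that a count of 0 allows, were worth 0.0978 to 0.104 CPM, the count scaled to the size of the library. VASP stood at 12.9, 12.8 and 12.3 CPM in knockdown libraries, against 156, 174 and 163 CPM in control libraries (log2 fold change -3.69, SE 0.06, edgeR adjusted p = 8.3e-24), so the targeted transcript was low in every library labelled as knockdown. Of the markers of this line, VIM, CD44, AXL and ZEB1 averaged from 46.9 to 1889.7 CPM in either group, whereas SPARC averaged 0.269 ± 0.0926 CPM in knockdown and 0.436 ± 0.0217 CPM in control libraries (SD, n = 3 each). Of 5 genes expected to be low, ESR1, PGR, GATA3 and CDH1 averaged under 1 CPM in both groups, while EPCAM averaged 5.43 ± 0.597 CPM in knockdown and 6.42 ± 0.258 CPM in control libraries (SD, n = 3 each). The 6 markers of other cells summed to 13.4 to 15.1 CPM in knockdown libraries, against 16.4 to 18.9 CPM in control libraries. Among them PTPRC and CD3E averaged at most 0.103 CPM and CD14 at most 2.59 CPM, COL1A1 averaged 5.89 CPM in knockdown and 6.11 CPM in control libraries, and ACTA2 (3.95 CPM in knockdown, 6.16 CPM in control, edgeR adjusted p = 0.00011) and PECAM1 (2.05 CPM in knockdown, 2.82 CPM in control, adjusted p = 0.026) were lower in the knockdown. Their part in the results was not tested. The headers of all 3 control columns are built on the title of the first control sample, so these libraries may be repeats of 1 sample, and n = 3 for the controls counts libraries. Nor do the labels tell whether libraries stem from different cultures, and every p-value below rests on differences among these 3 per group that could be technical.

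More of the mitochondrial ribosomal protein genes were higher after VASP knockdown than lower, and the differences were small. At an edgeR adjusted p under 0.05 over all genes, 24 of the 74 tested members were higher (32.4%), against a background of 18.9% of all genes tested. Another 4 were lower (5.41%), against a background of 18.3%, while 37.2% of all genes passed in either direction. The remaining 46 did not pass the threshold. Fitted log2 fold changes of the members ran from -0.40 to 0.31 with a median of 0.07, where all genes tested had a median of -0.01, and 48 members lay above 0 and 26 below. The 28 members that passed the threshold changed by a median of 1.15-fold, against 1.23-fold for the 6187 genes that passed it in the whole table. When the test asked for a change beyond 1.2-fold, edgeR called 0 members higher (0 at an unadjusted p under 0.05) and 1, MRPL10, lower, against a background of 1.95% of genes higher and 3.78% lower.

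**Figure D1:**
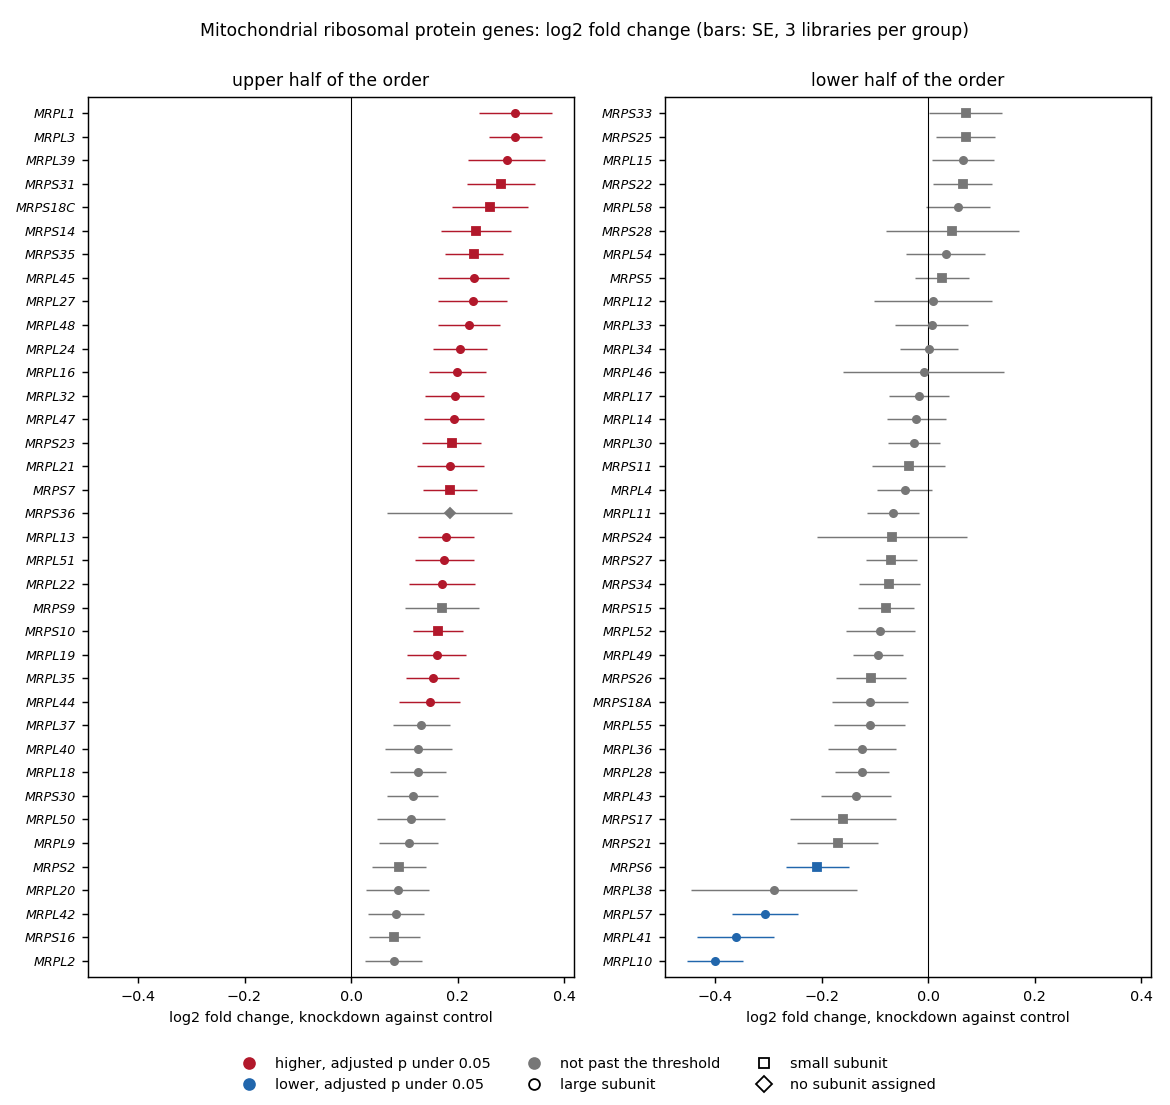
Log2 fold change, knockdown against control, of the 74 tested mitochondrial ribosomal protein genes in order, the upper part of the order on the left and the lower part on the right. Points are fitted values with SE bars from 3 libraries per group, colours give the edgeR call and shapes the subunit. The members ran from 0.31 for MRPL1 to -0.40 for MRPL10.

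Summed over all 78 members, the level was 3329, 3502 and 3393 CPM in the knockdown libraries, against 3229, 3256 and 3288 CPM in the control libraries. The groups did not overlap, and the mean was 4.63% higher in the knockdown. In bulk RNA, fewer cells that express a gene and less RNA per cell cannot be told apart. The large subunit summed to 2216, 2345 and 2268 CPM in knockdown libraries, against 2156, 2172 and 2199.9 CPM in control libraries. The small subunit summed to 1108, 1152 and 1121 CPM in knockdown libraries, against 1068, 1079 and 1084 CPM in control libraries. Both subunits were thus higher by nearly the same proportion, 4.6% for the large and 4.64% for the small, with the second knockdown library highest in each. Gene by gene, the 3 knockdown libraries lay above all 3 control libraries for 33 tested members, against a background of 24.1% of all genes, and below them for 7, against 23.5%.

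The largest increases were those of MRPL1 and MRPL3, both with bacterial counterparts. MRPL1 (ENSG00000169288, chromosome 4, 77862830 to 77952785, plus strand, GRCh38), which forms the movable stalk beside the tRNA exit site, had 26.2, 28.1 and 29.7 CPM in knockdown libraries, against 24.2, 22.4 and 21.2 CPM in control libraries. Every knockdown library was above every control library, and the fitted difference was 1.24-fold (log2 fold change 0.31, SE 0.07, edgeR adjusted p = 0.0010). MRPL3 (ENSG00000114686, chromosome 3, 131462212 to 131502983, minus strand), whose bacterial counterpart reaches towards the catalytic centre, had 104, 115 and 114 CPM in knockdown libraries, against 91.3, 89.1 and 88.4 CPM in control libraries. The groups were again apart, by 1.24-fold (log2 fold change 0.31, SE 0.05, edgeR adjusted p = 4.1e-05). No other member that was higher had a smaller p. Of the exon bases of MRPL3, 9.36% overlap an antisense transcript, AC107027.1, which averaged at most 0.122 CPM in either group.

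MRPL39 (ENSG00000154719, chromosome 21, 25585656 to 25607517, minus strand), a mitochondria-specific protein related to threonyl-tRNA synthetase, had 19.4, 22.3 and 21.01 CPM in knockdown libraries, against 16.7, 16.7 and 17.8 CPM in control libraries. The lowest knockdown library exceeded the highest control library (log2 fold change 0.29, SE 0.07, edgeR adjusted p = 0.0025). MRPL45 (ENSG00000278845, chromosome 17, 38297023 to 38323217, plus strand), which holds the tunnel exit against the inner membrane, had 25.3, 24.2 and 26.3 CPM in knockdown libraries, against 22.4, 20.2 and 22.1 CPM in control libraries. Its groups did not overlap either (log2 fold change 0.23, SE 0.07, edgeR adjusted p = 0.0085), but the call was lost without the second control library (adjusted p = 0.061), and the gene also lies on alternate sequences of the assembly, where fragments with several alignments go uncounted.

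MRPL27 and MRPL48 belong to the central protuberance, the crown of the large subunit that faces the small one. MRPL27 (ENSG00000108826, chromosome 17, 50367857 to 50373207, minus strand) had 32.8, 35.2 and 30.7 CPM in knockdown libraries, against 27.3, 27.3 and 29.7 CPM in control libraries (log2 fold change 0.23, SE 0.06, edgeR adjusted p = 0.0070). MRPL48 (ENSG00000175581, chromosome 11, 73787872 to 73865133, plus strand) had 33.4, 34.3 and 32.5 CPM in knockdown libraries, against 28.4, 28.9 and 28.8 CPM in control libraries (log2 fold change 0.22, SE 0.06, edgeR adjusted p = 0.0042). In both genes all knockdown libraries were above all control libraries.

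Of the small subunit, MRPS31, MRPS18C, MRPS14 and MRPS35 had the largest increases, of which those of MRPS18C and MRPS14 did not pass with the GC and length correction (corrected log2 fold changes 0.14 and 0.14, adjusted p = 0.14 and 0.11). MRPS31 (ENSG00000102738, chromosome 13, 40729128 to 40771190, minus strand), a mitochondria-specific protein, had 25.9, 28.3 and 27.1 CPM in knockdown libraries, against 22.5, 21.8 and 22.6 CPM in control libraries (log2 fold change 0.28, SE 0.06, edgeR adjusted p = 0.0012). MRPS35 (ENSG00000061794, chromosome 12, 27710822 to 27756295, plus strand), also mitochondria-specific, had 63.2, 64.5 and 64.5 CPM in knockdown libraries, against 52.3, 52.7 and 58.8 CPM in control libraries (log2 fold change 0.23, SE 0.05, edgeR adjusted p = 0.0018). Neither shares exon bases with another symbol, and neither had overlapping groups, although the third control library of MRPS35 stood above its fellows. MRPS14 (ENSG00000120333, chromosome 1, 175010789 to 175023425, minus strand), a counterpart of a bacterial protein of the head, had 26.3, 28.5 and 25.8 CPM in knockdown libraries, against 22.9, 23.8 and 21.8 CPM in control libraries (log2 fold change 0.23, SE 0.07, edgeR adjusted p = 0.0065). MRPS18C (ENSG00000163319, chromosome 4, 83455932 to 83469735, plus strand), one of 3 human relatives of a single bacterial protein, had 18.4, 18.6 and 17.7 CPM in knockdown libraries, against 15.8, 14.9 and 14.8 CPM in control libraries (log2 fold change 0.26, SE 0.07, edgeR adjusted p = 0.0055). Both genes again had groups that were apart, but both share exon bases with a gene on the opposite strand, 14.9% of them with CACYBP in MRPS14 and 40.2% with ABRAXAS1 in MRPS18C, and the counting ignored strand.

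Of the other relatives of MRPS18C, 1 could be tested and did not pass the threshold. MRPS18A and MRPS18B were counted with the mitochondria-specific members here, although they too are relatives of a bacterial protein. MRPS18A, which sits in the large subunit despite its name, had 19.3, 23.3 and 20.9 CPM in knockdown libraries, against 22.2, 23.8 and 22.5 CPM in control libraries, with overlapping groups (log2 fold change -0.11, SE 0.07, edgeR adjusted p = 0.25). MRPS18B was not tested: it was listed at 0 in all 6 libraries and lies on 6 alternate sequences besides the primary one.

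**Figure D2:**
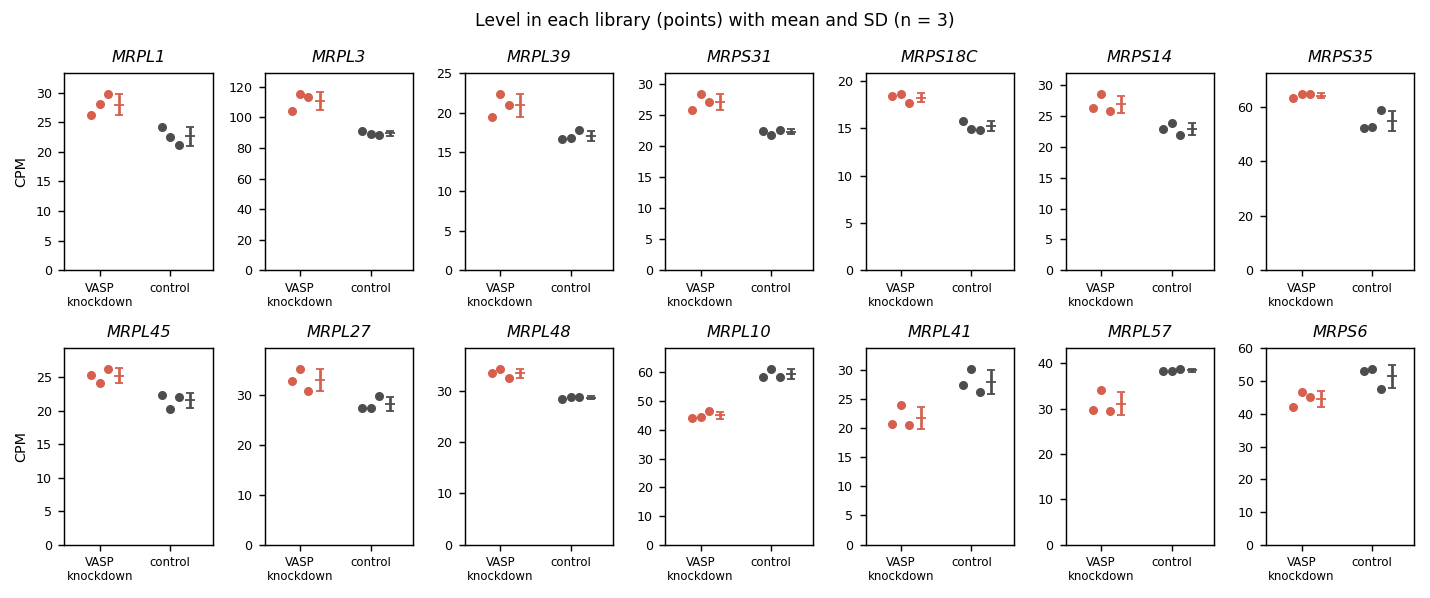
Level in CPM (vertical axes from 0) of the 10 members with the largest increases and the 4 members that were lower in each knockdown library (left) and control library (right), with mean and SD over n = 3 beside the points. In all 14 genes the groups do not overlap, and with the GC and length correction MRPS18C, MRPS14 and MRPL41 do not pass the threshold.

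MRPL10 was the member that changed most and in the other direction. MRPL10 (ENSG00000159111, chromosome 17, 47823272 to 47831541, minus strand), the base of the stalk that carries copies of MRPL12 and through them receives the translation factors, had 44.2, 44.5 and 46.4 CPM in knockdown libraries, against 58.3, 61.3 and 58.6 CPM in control libraries. The groups were far apart, 1.32-fold lower in the knockdown (log2 fold change -0.40, SE 0.05, edgeR adjusted p = 3.1e-06), and no exon base is shared with another symbol. MRPL57 (ENSG00000173141, chromosome 13, 21176658 to 21179084, plus strand), a small mitochondria-specific protein, had 29.8, 34.03 and 29.6 CPM in knockdown libraries, against 38.3, 38.3 and 38.9 CPM in control libraries. It was 1.24-fold lower without overlap (log2 fold change -0.31, SE 0.06, edgeR adjusted p = 0.00039). MRPL41 (ENSG00000182154, chromosome 9, 137551879 to 137552555, plus strand), mitochondria-specific as well, had 20.7, 23.9 and 20.6 CPM in knockdown libraries, against 27.4, 30.2 and 26.1 CPM in control libraries (log2 fold change -0.36, SE 0.07, edgeR adjusted p = 0.00037). Its groups did not overlap, but the transcript has the highest GC content of all members, 71.9%, and the log2 fold change was 0.08 after correction for GC content and length (adjusted p = 0.37). MRPS6 (ENSG00000243927, chromosome 21, 34073224 to 34143034, plus strand), which in bacteria pairs with the counterpart of MRPS18C, had 42.03, 46.6 and 45.04 CPM in knockdown libraries, against 52.98, 53.8 and 47.5 CPM in control libraries. All knockdown libraries were below all control libraries (log2 fold change -0.21, SE 0.06, edgeR adjusted p = 0.0076), but the call was lost without the first knockdown library (adjusted p = 0.064) or the second control library (adjusted p = 0.060).

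The other 14 members that were higher, by log2 fold changes of 0.15 to 0.20, were MRPL24, MRPL16, MRPL32, MRPL47, MRPS23, MRPL21, MRPS7, MRPL13, MRPL51, MRPL22, MRPS10, MRPL19, MRPL35 and MRPL44. MRPL24 averaged 83.1 ± 2.43 CPM in knockdown libraries and 72.1 ± 3.03 CPM in control libraries (SD, n = 3 each) (log2 fold change 0.20, SE 0.05, edgeR adjusted p = 0.0026). MRPS7, which lies in the head of the small subunit where tRNA leaves, averaged 64.1 ± 2.30 CPM in knockdown libraries and 56.3 ± 0.844 CPM in control libraries (SD, n = 3 each) (log2 fold change 0.19, SE 0.05, edgeR adjusted p = 0.0061). Across all 28 members that passed the threshold, 16 kept their call and direction whichever single library was left out, among them MRPL1, MRPL3, MRPL39, MRPS31, MRPL10, MRPL41 and MRPL57. MRPL19, MRPL22 and MRPL44 kept it in 2 of the 6 subsets. Leaving out the second control library left 16 members higher and 3 lower, and leaving out the second knockdown library left 20 higher and 7 lower. Over all genes the counts fell in both cases, from 3148 higher and 3039 lower with all libraries. They were 2238 and 2243 without the second control library, and 2790 and 2424 without the second knockdown library.

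By structure, 17 of 49 tested members of the large subunit were higher and 3 lower, and of the small subunit 7 of 24 were higher and 1 lower, where 18.9% of all genes were higher and 18.3% lower. The median log2 fold change was 0.08 in the large and 0.07 in the small subunit. Of members with a bacterial counterpart, 16 of 44 were higher and 2 lower, and of the mitochondria-specific ones 8 of 29 were higher and 2 lower. With the GC and length correction the order of these 2 groups reversed, at 31.8% and 37.9% higher, against 17.6% of all genes. The correction left 38.8% of the large and 25% of the small subunit higher. At the tunnel exit, MRPL22, MRPL24, MRPL44, MRPL45 and MRPL47 were higher and MRPL17 was not past the threshold (log2 fold change -0.02, adjusted p = 0.84). With the GC and length correction, 2 of those 6 were higher, MRPL24 and MRPL45. Of the 4 tested stalk members MRPL10 was lower, and MRPL11, MRPL12 and MRPL54 had log2 fold changes of -0.07, 0.01 and 0.03 without passing. With the correction MRPL54 was higher (log2 fold change 0.22, edgeR adjusted p = 0.027). MRPL12 itself had 9.10, 11.03 and 7.49 CPM in knockdown libraries, against 8.74, 9.31 and 9.40 CPM in control libraries, with overlapping groups, and 69.5% of its exon bases are shared with AC139530.2. In the central protuberance MRPL27 and MRPL48 were higher and the other 6 did not pass. With the correction MRPL18 and MRPL40 were higher as well. MRPL58, a peptidyl-tRNA hydrolase that frees stalled ribosomes, passed in neither fit. It had 34.4, 37.6 and 35.6 CPM in knockdown libraries, against 33.6, 33.6 and 36.4 CPM in control libraries (log2 fold change 0.06, SE 0.06, edgeR adjusted p = 0.49). None of these structural groups was tested as a group.

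MRPS36 carries a ribosomal name but is now assigned to the 2-oxoglutarate dehydrogenase complex, and it was given no subunit. It had 4.73, 5.75 and 4.80 CPM in knockdown libraries, against 4.49, 4.62 and 4.32 CPM in control libraries (log2 fold change 0.19, SE 0.12, edgeR adjusted p = 0.23), so that the groups did not overlap but the difference did not pass. It too lies on alternate sequences.

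Levels of the members were compared per kilobase of exon, over all 6 libraries. The tested members spanned 0.736 to 72.9 CPM per kilobase with a median of 14.6. The highest were MRPS10 at 72.9, MRPL51 at 51.6 and MRPL37 at 47.5 CPM per kilobase. MRPS10 had 159.8, 166 and 159 CPM in knockdown libraries, against 149, 144 and 140.2 CPM in control libraries (log2 fold change 0.16, SE 0.05, edgeR adjusted p = 0.0085), and with the correction its adjusted p was 0.12. MRPL51 had 73.8, 80.9 and 73.2 CPM in knockdown libraries, against 70.1, 69.1 and 62.8 CPM in control libraries (log2 fold change 0.17, SE 0.06, edgeR adjusted p = 0.015), a call lost without the second knockdown library (adjusted p = 0.091) or the third control library (adjusted p = 0.077). Both were higher in every knockdown library than in any control library. MRPL37 had 116, 131 and 133 CPM in knockdown libraries, against 118, 110.03 and 118 CPM in control libraries, with overlapping groups (log2 fold change 0.13, SE 0.05, edgeR adjusted p = 0.056), and it was higher without the first knockdown library (adjusted p = 0.011) or the third control library (adjusted p = 0.036).

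The lowest tested members were MRPL38 at 0.736, MRPL46 at 0.761 and MRPS24 at 1.13 CPM per kilobase. Each shares exon bases with other symbols, 41.1% in MRPL38, 11.3% in MRPL46 and 23.2% in MRPS24, which includes a read-through transcript URGCP-MRPS24, and shared fragments went uncounted. None passed the threshold, and their groups overlapped. MRPL38 had 1.96, 2.94 and 2.38 CPM in knockdown libraries, against 2.84, 3.03 and 3.01 CPM in control libraries (log2 fold change -0.29, SE 0.16, edgeR adjusted p = 0.15), and without the second knockdown library it was lower (adjusted p = 0.0495).

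The 4 members below the filter were MRPL23, MRPL53, MRPS12 and MRPS18B. MRPS12 had 1 count in the first control library and 0 in the other libraries, and the other 3 genes were listed at 0 throughout. MRPL23, MRPS12 and MRPS18B also lie on alternate sequences, and 99.4% of the exon bases of MRPL53 are shared with AC005041.5 or CCDC142. A level of 0 therefore says nothing of expression in these genes. Among all 78 members, 42 share some exon bases with another symbol, and 28 share at least 10%. Of the 48 tested members below that share, 18 were higher and 4 lower, and of the 26 above it 6 were higher and 0 lower (1 lower at an unadjusted p under 0.05 in edgeR, 0 by DESeq2). The shares that were higher, 37.5% and 23.1%, stand beside 18.9% of all genes, and 18.3% of all genes were lower.

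Fold changes followed the GC content of the transcript in the whole table, and the members followed it too. Across the 74 members, log2 fold change and GC content had a Spearman rho of -0.60, and across 16368 tested genes -0.42, as descriptions over genes of the same 6 libraries. Members had a median GC content of 48.5%, against 48.1% for all tested genes. Of 23 members under 45% GC, 16 were higher and 0 lower in edgeR (0 lower at an unadjusted p under 0.05, and 0 by DESeq2), where 36.6% of all genes in that band were higher and 7.10% lower. Of 32 members between 45% and 55%, 7 were higher and 3 lower, against 12.8% and 15.4%. Of 19 members above 55%, MRPL21 was higher and MRPL41 lower, against 3.97% and 37.1%. The medians of the members were 0.18, 0.07 and -0.07 in the 3 bands, beside 0.13, -0.01 and -0.16 for all genes.

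A correction for GC content and length, fitted per library, changed which members passed more than how many. With it 25 members were higher (33.8%), against a background of 17.6%, and 3 were lower (4.05%), against 12%, with a median log2 fold change of 0.09 beside 0.03 for all genes. Of the 24 that were higher without it, 15 were higher with it, including MRPL1, MRPL3, MRPL39, MRPL45, MRPL24 and MRPS31. The 9 that dropped below the threshold, all under 45% GC, were MRPS18C, MRPS14, MRPL47, MRPL13, MRPL22, MRPS10, MRPL19, MRPL35 and MRPL44. The 10 that were higher with the correction alone were MRPS34, MRPL4, MRPL54, MRPL2, MRPL20, MRPS2, MRPL9, MRPL18, MRPL40 and MRPL37. MRPL37 reached a corrected log2 fold change of 0.20 (adjusted p = 0.0063). MRPL10, MRPL57 and MRPS6 remained lower, at corrected values of -0.34, -0.27 and -0.18. The part of GC content in the uncorrected differences was not tested beyond this comparison.

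**Figure D3:**
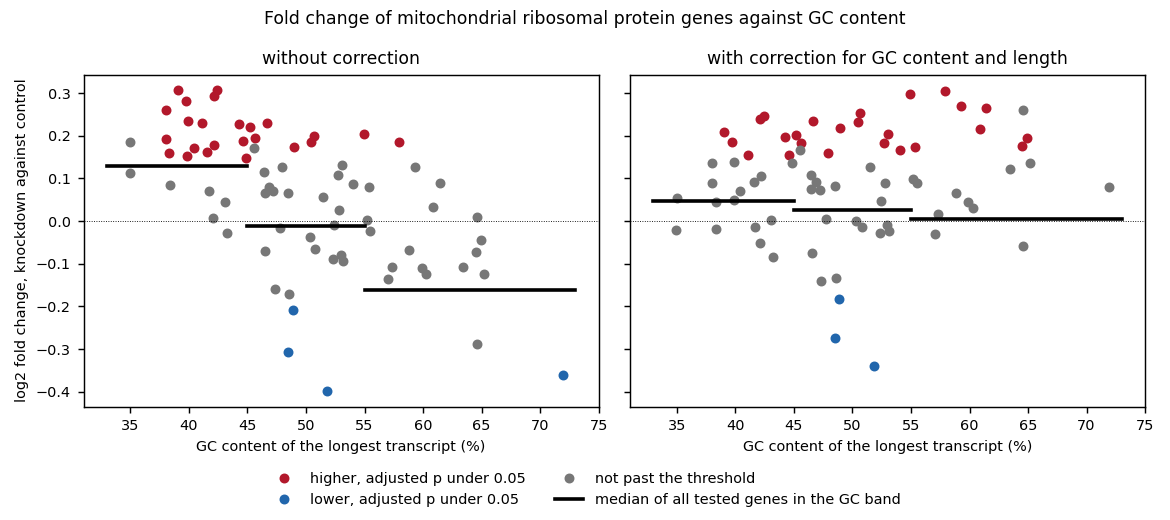
Log2 fold change, knockdown against control, of the 74 tested members against the GC content of their longest transcript, without correction (left) and with correction for GC content and length (right). Points are genes coloured by their call, and black lines are medians of all tested genes in bands under 45%, 45% to 55% and above 55% GC. Left, members and black lines descend with GC content, and right they are nearly level.

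ETS-family factors such as GABP, together with NRF1 and YY1, are known to act on nuclear genes for mitochondrial proteins, and the short sequences they bind were searched in the promoters of the members. RefSeq windows of GRCh38.p14 reaching from 250 bases before to 50 after a start were available for 69 members, in 85 promoters. On either strand, CCGGAAG for ETS factors was present in 38.8% of them, against 12.7% of 22114 promoters of other protein-coding genes. AANATGGCG for YY1 was present in 21.2%, against 4.17%, and the palindromic consensus of NRF1 in 11.8%, against 7.37%. At least 1 of the 3 was found in 62.4%, against 21.5%, while the median GC content of the windows was 60.3% for members and 62.3% for the others. The motifs were counted separately, overlapping or not.

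Among members with a window, 15 of 21 that were higher, 1 of 3 that were lower and 30 of 42 that did not pass held at least 1 motif. The shares among members that were higher and members that did not pass were equal. The following 150 bases, from 120 before to 30 after the start, are given 5′ to 3′, to show where matches lie, for the 4 members with the largest increases and for the 3 members that were lower and had a window, with motif matches in capitals.
MRPL1 (chr4:77862710-77862859, plus strand): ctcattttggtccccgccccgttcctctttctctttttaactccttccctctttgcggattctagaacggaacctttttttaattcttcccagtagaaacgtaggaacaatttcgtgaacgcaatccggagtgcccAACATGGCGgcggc
MRPL3 (chr3:131502942-131503091, minus strand): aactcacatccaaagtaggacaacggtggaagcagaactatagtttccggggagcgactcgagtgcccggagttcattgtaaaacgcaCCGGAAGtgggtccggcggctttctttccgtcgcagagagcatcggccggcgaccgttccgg
MRPL39 (chr21:25607452-25607601, minus strand): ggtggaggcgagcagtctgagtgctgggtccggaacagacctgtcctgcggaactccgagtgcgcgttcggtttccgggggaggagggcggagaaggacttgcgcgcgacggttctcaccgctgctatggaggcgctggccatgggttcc
MRPS31 (chr13:40771161-40771310, minus strand): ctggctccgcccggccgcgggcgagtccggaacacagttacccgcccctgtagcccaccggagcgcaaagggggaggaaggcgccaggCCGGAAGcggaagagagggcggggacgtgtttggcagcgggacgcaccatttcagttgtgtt
MRPL57 (chr13:21176538-21176687, plus strand): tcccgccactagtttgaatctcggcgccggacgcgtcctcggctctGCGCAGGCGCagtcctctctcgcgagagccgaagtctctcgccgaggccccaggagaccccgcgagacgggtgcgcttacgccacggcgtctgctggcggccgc
MRPL41 (chr9:137551759-137551908, plus strand): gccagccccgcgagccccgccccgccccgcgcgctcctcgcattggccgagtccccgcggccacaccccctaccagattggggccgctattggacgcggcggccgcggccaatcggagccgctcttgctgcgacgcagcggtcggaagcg
MRPS6 (chr21:34073458-34073607, plus strand): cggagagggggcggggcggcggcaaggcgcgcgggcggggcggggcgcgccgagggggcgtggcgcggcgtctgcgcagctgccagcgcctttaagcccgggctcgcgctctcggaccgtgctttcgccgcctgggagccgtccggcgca
MRPL3 and MRPS31 each held the ETS letters 32 bases before the start. MRPL1 held the YY1 letters just after it, and MRPL57 the NRF1 letters on the opposite strand. MRPL39, MRPL41 and MRPS6 showed no match in these bases, which says only that these letters are not there.

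Of 9 regulators of nuclear genes for mitochondria, which include the factors above, 1 was higher and 3 were lower, where 18.9% of all genes were higher and 18.3% lower. By DESeq2, and with any single library but the third knockdown library left out, 2 were lower. With the GC and length correction 1 was lower, against 12% of all genes. GABPA, the DNA-binding part of GABP, had 31.3, 28.2 and 29.6 CPM in knockdown libraries, against 29.3, 26.03 and 26.96 CPM in control libraries (log2 fold change 0.12, SE 0.06, edgeR adjusted p = 0.17). GABPB1, its partner, was higher (log2 fold change 0.28, SE 0.07, edgeR adjusted p = 0.0023), though with the correction its adjusted p was 0.063. NRF1 had a log2 fold change of -0.05 (adjusted p = 0.64) and YY1 of 0.04 (adjusted p = 0.52). PPARGC1A, a coactivator of mitochondrial biogenesis, had 6.91, 6.46 and 6.78 CPM in knockdown libraries, against 9.46, 8.83 and 9.23 CPM in control libraries. Its groups did not overlap (log2 fold change -0.45, SE 0.09, edgeR adjusted p = 0.00047), and it remained lower with the correction (-0.54, adjusted p = 9.9e-05). ESRRA and MYC were lower (log2 fold changes -0.32 and -0.15), but with the correction their adjusted p were 0.15 and 0.33.

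Of the 5 other proteins of the mitochondrial ribosome whose symbols the rule does not match, DAP3 and PTCD3 were higher and AURKAIP1 lower. Among all genes, 18.9% were higher and 18.3% lower. With the GC and length correction 1 of the 5 was higher and 0 were lower, against 17.6% and 12% of all genes. DAP3, a GTP-binding protein of the small subunit, had 135, 133 and 143 CPM in knockdown libraries, against 121, 120.03 and 124 CPM in control libraries (log2 fold change 0.17, SE 0.05, edgeR adjusted p = 0.0055). AURKAIP1 was not lower with the GC and length correction (corrected log2 fold change 0.13, adjusted p = 0.071) or without the first knockdown library (adjusted p = 0.062). PTCD3 did not pass without the third knockdown library (adjusted p = 0.068), without the second control library (adjusted p = 0.058) or with the correction (adjusted p = 0.067). Both ribosomal RNAs had overlapping groups: MT-RNR1 had a log2 fold change of 0.18 (adjusted p = 0.21) and MT-RNR2 of 0.03 (adjusted p = 0.84).

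Of 17 factors that work on this ribosome in translation or keep its messengers stable, 9 were higher and 2 lower, with MRRF and TUFM the lower ones, where 18.9% of all genes were higher and 18.3% lower. With the correction 7 were higher and 1 lower, where 17.6% of all genes were higher and 12% lower. Without the correction 1 was lower when the first or the third knockdown library or the second or the third control library was left out. MTIF2, the initiation factor that brings the first tRNA, had 46.5, 51.9 and 51.1 CPM in knockdown libraries, against 38.3, 34.3 and 38.5 CPM in control libraries (log2 fold change 0.43, SE 0.06, edgeR adjusted p = 8.2e-06). GFM1, the elongation factor for translocation, had 63.2, 63.5 and 64.01 CPM in knockdown libraries, against 49.7, 49.9 and 54.6 CPM in control libraries (log2 fold change 0.31, SE 0.05, edgeR adjusted p = 8.3e-05). Neither showed overlap between groups, and both remained higher with the correction, at 0.35 and 0.22. MTRF1L, a release factor, and LRPPRC, which stabilises mitochondrial messengers, were higher by log2 fold changes of 0.39 and 0.23. Of 26 tested assembly factors, GTPBP10, FASTKD2, NSUN4 and ERAL1 were higher and RCC1L and NGRN lower (15.4% and 7.69%), both below the shares of all genes. With the correction 10 of the 26 were higher and 2 lower, NGRN and METTL15, against 17.6% and 12% of all genes. The higher share then lay above the background. Without the second or the third knockdown library or the third control library 1 assembly factor was lower. Of 5 genes for mitochondrial transcription, TFAM, MTERF1 and TFB2M were higher. TFAM, which packs and transcribes mitochondrial DNA, had 115, 113 and 116 CPM in knockdown libraries, against 89.6, 91.4 and 97.1 CPM in control libraries, without overlap (log2 fold change 0.31, SE 0.05, edgeR adjusted p = 2.6e-05).

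Of the 15 mitochondrially encoded genes, which include the messengers this ribosome translates, edgeR called 0 higher and 5 lower, and the counts were the same with the correction. DESeq2 called 0 higher and 4 lower, and 0 were higher at an unadjusted p under 0.05 in edgeR. Of all genes 18.9% were higher and 18.3% lower. Without the first knockdown library 3 were lower and 1, MT-ND3, was higher (log2 fold change 0.46, adjusted p = 0.011), and without the first control library MT-RNR1 was higher (log2 fold change 0.28, adjusted p = 0.016). MT-ND5 had 2761, 2861 and 3372 CPM in knockdown libraries, against 4126, 3776 and 4391 CPM in control libraries (log2 fold change -0.45, SE 0.07, edgeR adjusted p = 6.9e-05), with groups that did not overlap. MT-ND4, MT-ND2, MT-ND1 and MT-CYB were lower by log2 fold changes of -0.32, -0.35, -0.28 and -0.23. For comparison, 16 of 81 tested cytosolic ribosomal proteins were higher (19.8%) and 8 lower (9.88%). Of 76 nuclear subunits of oxidative phosphorylation, 13 were higher (17.1%) and 8 lower (10.5%). The higher shares were near the 18.9% of all genes, and the lower shares lay below the 18.3%, as did the 5.41% of members. These counts moved with single libraries: without the second knockdown library 8 and 5 were higher, and without the second control library 9 and 4. Those lower ran from 4 to 8 of the cytosolic and 2 to 8 of the oxidative phosphorylation genes when single libraries were left out. With the correction 20 and 13 were higher and 2 of each were lower, where 17.6% of all genes were higher and 12% lower.

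**Figure D4:**
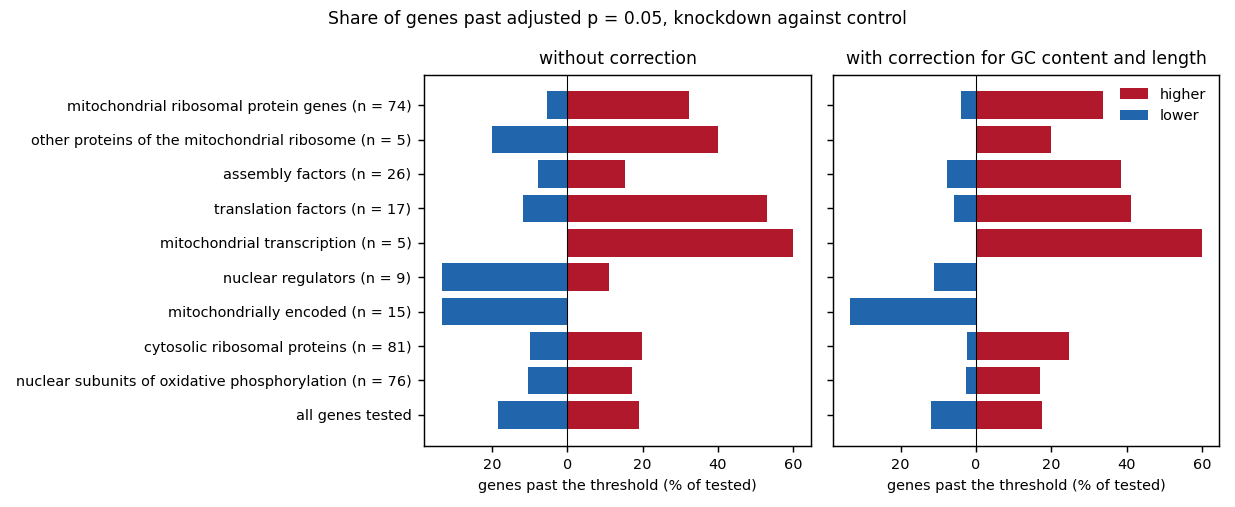
Share of tested genes past adjusted p = 0.05 that were higher (red, to the right of 0) or lower (blue, to the left) in knockdown against control, for the members, the related lists and all genes tested, without (left) and with (right) correction for GC content and length. The members reach 32.4% higher and 5.41% lower on the left, beside 18.9% and 18.3% of all genes.

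Many members start back to back with another gene. In 34 members a gene on the opposite strand started within 1000 bases and ran the other way, in some pairs with overlapping starts. Of such pairs, 24 had a tested protein-coding neighbour. Of those neighbours, 6 were higher, 4 lower and 14 did not pass, shares near the 18.9% higher and 18.3% lower of all genes. Both genes were higher in 3 pairs, MRPL13 with MTBP, MRPL27 with EME1 and MRPL47 with NDUFB5. No other pair had both genes past the threshold, so that 0 pairs with opposite calls says little. With the GC and length correction the lower neighbours, PELI3, TMEM63B, APBA3 and EME2, did not pass (edgeR adjusted p = 0.54, 0.054, 0.76 and 0.69). Of the higher ones, NDUFB5 and ZNF189 did not pass (adjusted p = 0.81 and 0.17). Of the 3 pairs only MRPL27 with EME1 kept both calls, and MRPL18 and TCP1 were then both higher. Over the 24 pairs the Spearman rho of the log2 fold changes was 0.43, as a description of genes that share libraries and local base composition. Some pairs, such as MRPS7 with GGA3, MRPL51 with NCAPD2 and MRPS34 with EME2, overlap at their starts. Fragments that touched exons of both genes went uncounted there. MRPL30 had a log2 fold change of -0.03 (adjusted p = 0.70) while MITD1, starting 94 bases away, had 42.6, 43.9 and 42.4 CPM in knockdown libraries, against 32.9, 32.5 and 33.1 CPM in control libraries. The MITD1 groups did not overlap (log2 fold change 0.39, SE 0.05, edgeR adjusted p = 7.6e-06). Beside MRPL10, LRRC46 had a log2 fold change of -0.28 that did not pass (adjusted p = 0.17), and beside MRPL57, SKA3 had 0.19 (adjusted p = 0.055).

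**Figure D5:**
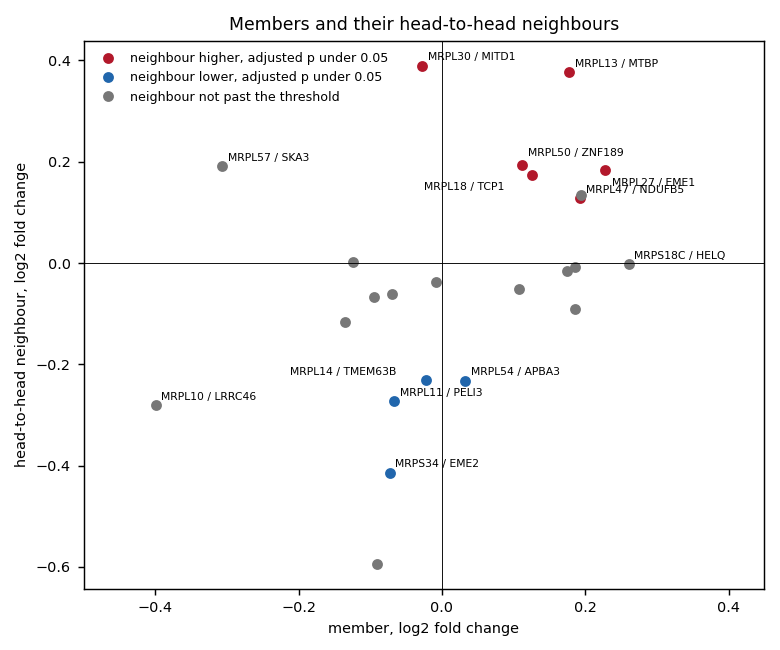
Log2 fold change, knockdown against control, of members (horizontal) and of their head-to-head protein-coding neighbours (vertical) in 24 pairs, coloured by the neighbour's call. Pairs whose neighbour passed the threshold or whose member lay beyond 0.2 are named. Both genes passed in only 3 pairs, and no named pair holds calls of opposite direction. All values are without the GC and length correction.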

How the data were processed

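For 3 VASP knockdown and 3 control libraries the authors deposited counts, whole numbers of fragments for each gene symbol. Per the file headers, featureCounts 1.6.4 counted paired-end fragments over exons of GENCODE release 32 on GRCh38 with patches and alternate sequences. No strand, multi-mapping or multi-overlap option is shown, so fragments with several alignments or touching several symbols were left out. A further deposited column holds exon length in bases. The submitters' processing notes name Trim Galore 0.6.4 and STAR 2.7.1a. Their settings are unknown here. All 3 control headers are built on the title of the first control sample, with a number added, so these columns are known by group, not by sample, may be repeats of 1 sample, and are numbered in table order as names.

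Genes passing filterByExpr (16633 of 61155 symbols) entered the quasi-likelihood test of edgeR 4.0.16 in R 4.3.3, two-sided and after TMM scaling, with Benjamini-Hochberg adjustment over all genes and a threshold of 0.05. The SE is the log2 fold change divided by the square root of F, and fold changes are knockdown against control. The biological coefficient of variation was 4.81%. Alternatives were other scalings and filters, DESeq2 1.42.0, a test against a fold of 1.2, each library left out, and per-library spline offsets (5 degrees of freedom) for GC content and length, for which GENCODE release 29 on GRCh38 gave transcripts. The exon-overlap and GC-band counts were added after the data were seen. The analysis was tested on simulated data. The members, lists and roles were chosen with earlier results of these data known. Named in full were the up to 10 members with the largest increase and decrease past the threshold, the 3 highest and 3 lowest per kilobase, MRPS18A, MRPS18B, MRPS18C, MRPL12, MRPL58, MRPS36, members below the filter, and up to 4 genes per list. Floors cover counting error only.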

Additional observations from a re-analysis of the deposited data

How the results depend on the processing

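With RLE or upper-quartile scaling, DESeq2, other filters on low counts or the GC and length correction, 21 to 26 members were higher and 3 to 6 lower, where the reported counts are 24 and 4. Over all genes these settings called 2702 to 3417 higher and 1966 to 3402 lower, where the reported counts are 3148 and 3039. All of the 4 lower members were shared with each of these settings except the correction, which shared 3. Leaving out single libraries gave 16 to 26 members higher and 3 to 7 lower, while over all genes 2238 to 3249 were higher and 2243 to 3150 lower. Against a null fold of 1.2 in edgeR, 0 members were higher (0 at an unadjusted p under 0.05) and 1 lower, and over all genes 324 were higher and 629 lower, since that test asks for a larger change. With the GC and length correction 1966 genes were lower, where 3039 were lower without it, and MRPL41 reversed to a log2 fold change of 0.080; the cause was not tested. In GC bands, which hold fewer members each, 0 members were lower (0 at an unadjusted p under 0.05, 0 by DESeq2) and the median was 0.18 under 45%, 7 were higher between 45% and 55%, and 1 was higher, 1 lower and the median was -0.068 above 55%. No paired analysis was possible because the control columns carry no replicate number of the labels. With 3 libraries per group, the smallest member change past the threshold was 0.15 on the log2 scale, where the median of all members was 0.07, and the SE of a member ran from 0.05 to 0.16.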

Other observations

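The transcript that starts head to head with MRPS30 and bears its name, MRPS30-DT, was chosen here after its values were seen. MRPS30 had 76.7, 76.2 and 78.7 CPM in knockdown libraries, against 71.5, 70.4 and 71.9 CPM in control libraries, with a log2 fold change of 0.12 (adjusted p = 0.062). MRPS30-DT had 0.880, 0.846 and 0.817 CPM in knockdown libraries, against 1.78, 1.52 and 1.59 CPM in control libraries, and its groups did not overlap (log2 fold change -0.94, SE 0.20, edgeR adjusted p = 0.00072). With the GC and length correction MRPS30-DT had a log2 fold change of -1.07 (adjusted p = 0.00037). The starts of the genes lie 170 bases apart on opposite strands, the counting ignored strand, and MRPS30-DT averaged 0.848 ± 0.0317 CPM in knockdown and 1.63 ± 0.137 CPM in control libraries (SD, n = 3 each).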
